A study of Mus musculus with 18 samples.

Results

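The 9 enzymes described here make, salvage or remove the deoxynucleotides that cells need to copy their DNA: Tyms, Tk1, Rrm1, Rrm2, Dut, Dctpp1, Dtymk, Dck and Samhd1. They were chosen by symbol, and all 9 had a row among the 50689 features of the deposited count table. RNA was sequenced from proliferating satellite cells, which are muscle stem cells. They came from C57BL6 mice, from the tibialis anterior, and grew on matrigel in growth medium. There were 9 scKO libraries, of genotype Pax7-CreERT2/+;Hoxa10f/f, and 9 control libraries, of genotype Hoxa10f/f, so that floxed alleles of Hoxa10, a homeobox gene of limb and body patterning, were present in both groups. In scKO cells a tamoxifen-activated Cre is driven from the Pax7 gene, which marks satellite cells. The labels give 4-hydroxytamoxifen (1 µM for 2 days) for the scKO group and none for the controls, so loss of Hoxa10, the Cre and the drug cannot be told apart. The labels state no age, and nothing says whether replicates came from separate mice or cultures, so the p-values measure only the spread between these libraries, which may be technical.

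Depth divided the libraries into 2 classes. Fits of scKO against control below took these classes into account, except where a fit without depth class, or with group alone, is named. The deep class, over 2000000 counts, held 3 scKO libraries (replicates 6, 7 and 9) and 2 control libraries (replicates 1 and 2), with totals of 4346150 to 5986128 counts. The shallow class held 6 scKO and 7 control libraries with 420197 to 968559 counts. Levels are given as CPM, a gene's count scaled to library size, which was itself adjusted by the trimmed mean of M values (TMM). Hoxa10 averaged 3.40 ± 0.965 CPM in shallow scKO libraries and 35.1 ± 18.9 CPM in shallow controls (SD, n = 6 and 7), and 8.32 ± 1.99 CPM in deep scKO libraries and 39.9 ± 1.53 CPM in deep controls (n = 3 and 2). Within the shallow class, scKO 1 and control 7, 8 and 9 stood apart. Itga7, an integrin subunit of muscle cells, was at 3070 CPM in scKO 1 and 2593 to 3050 CPM in control 7 to 9, against 1657 to 2245 CPM in the other 5 shallow scKO libraries and 1371 to 1519 CPM in the other 4 shallow controls. Values without these 4 libraries are given where they moved a result.

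As background, ribonucleotide reductase removes the 2′ hydroxyl group of ribonucleoside diphosphates and is the source of all deoxynucleotides made de novo. It pairs a large catalytic subunit (Rrm1) with a small radical-bearing subunit (Rrm2), which is made in S phase and degraded afterwards. Thymidine triphosphate needs a branch of its own: Dut cleaves dUTP to dUMP, Tyms methylates dUMP to dTMP with a folate cofactor, Tk1 makes dTMP from salvaged thymidine, and Dtymk phosphorylates dTMP from both routes. Dck salvages deoxycytidine and purine deoxynucleosides, Dctpp1 hydrolyses dCTP and damaged forms of it, and Samhd1 degrades deoxynucleoside triphosphates. Satellite cells are quiescent in resting muscle and need this supply once they divide.

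All 9 enzymes matched a promoter window of RefSeq, build GRCm38.p6, taken as the 250 bases before the start site and searched on both strands. The windows of the reductase subunits Rrm1 and Rrm2 and of Tyms and Tk1, the enzymes with the largest changes, are shown, with motifs in capitals. The capitals mark the CCAAT box, the GC box, written GGGCGG, and the E box, written CACGTG, each also where it stands on the other strand. In the windows shown, bases inside the annotated gene were left out, so the Rrm2 and Tk1 windows are shorter. Motifs were counted over all 250 bases of each window, and the Dut window lies wholly inside its annotated gene. Tyms is shown at chr5:30073626-30073875 (minus strand), Tk1 at chr11:117826093-117826264 (minus strand), Rrm1 at chr7:102441445-102441694 (plus strand) and Rrm2 at chr12:24708004-24708240 (plus strand).
Tyms: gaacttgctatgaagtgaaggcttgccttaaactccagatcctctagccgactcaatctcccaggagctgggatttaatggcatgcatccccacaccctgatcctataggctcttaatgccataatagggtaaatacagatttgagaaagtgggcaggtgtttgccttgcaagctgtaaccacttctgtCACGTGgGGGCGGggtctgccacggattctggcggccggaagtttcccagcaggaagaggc
Tk1: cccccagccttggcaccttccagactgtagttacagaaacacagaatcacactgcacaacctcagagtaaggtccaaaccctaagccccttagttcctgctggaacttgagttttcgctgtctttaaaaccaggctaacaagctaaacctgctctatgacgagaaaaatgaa
Rrm1: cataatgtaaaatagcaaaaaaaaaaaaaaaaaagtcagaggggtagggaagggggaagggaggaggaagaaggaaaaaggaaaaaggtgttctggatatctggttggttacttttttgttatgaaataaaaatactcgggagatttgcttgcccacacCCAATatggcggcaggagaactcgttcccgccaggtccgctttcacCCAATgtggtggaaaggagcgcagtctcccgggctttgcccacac
Rrm2: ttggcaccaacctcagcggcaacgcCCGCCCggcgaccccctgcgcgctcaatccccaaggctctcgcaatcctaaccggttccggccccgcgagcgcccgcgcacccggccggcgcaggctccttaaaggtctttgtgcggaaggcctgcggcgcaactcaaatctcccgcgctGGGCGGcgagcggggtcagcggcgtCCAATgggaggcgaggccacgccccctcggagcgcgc

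In Tyms, GGGCGG began 54 bases and CACGTG 61 bases before the start site. Rrm1 had CCAAT at 91 and 45 bases and Rrm2 at 50 bases before its start, while the GGGCGG of Tk1, at 13 bases, lies in the part not shown. Over all members, CCAAT stood in 4 of 9 windows (Rrm1, Rrm2, Dctpp1 and Dtymk), and it stood in 33.8% of all 32851 mouse windows. GGGCGG stood in 7 of 9 (32.7% of all windows), CACGTG in Tyms and Dtymk (6.02% of all), and TTTGAA, a motif of cell cycle promoters, in Dck (16% of all). The 8-letter E2F forms TTTCGCGC, TTTGGCGC, TTTCCCGC and TTTGCCGC, with their complements, were in none of the 9 windows and in 1.86% of all. A window counted once however many matches it held, no matches in the 9 windows overlapped, and a match is a description of letters, not of binding.

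Over all 18 libraries, with depth class as a covariate, Tyms and Tk1 fell in scKO cells, and the other 7 enzymes had fold changes below 0 that did not pass the test. The 2 enzymes called lower compare with 0.352% of the 7662 genes tested (0.679% were called in either direction). The median log2 fold change of the 9 was -0.24, against -0.01 for all genes tested, and 51.6% of all genes were below 0. Without depth class in the model neither Tyms (edgeR adjusted p = 0.385) nor Tk1 (0.368) was called, and Dtymk was at 0.00. In the deep libraries alone, 7 of 9 fell, which compares with 7.03% of 13136 genes called lower (14.3% in either direction); their median was -0.43, against -0.00 for all genes. In all 9 enzymes each deep scKO library lay below both deep controls, as it did for 20.9% of the genes tested there. In the shallow libraries alone, 0 of the 7 enzymes that passed the count filter were called by edgeR, where 0.0145% of 6906 genes were called lower. There 1 of the 7, Tk1, had an unadjusted p under 0.05, as did 6.15% of the genes tested, and DESeq2 and limma-voom likewise called 0. In none of the 7 did every shallow scKO library lie below every control, which was so for 0.101% of those genes. The median of the 7 was -0.14 (all genes -0.02). It ran from -0.22 to -0.02 with each shallow library left out, and was -0.02 without control 4, -0.08 without control 3, -0.09 without scKO 1 and -0.22 without control 8. Bulk RNA cannot tell fewer cycling cells apart from less of these transcripts in each cell.

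**Figure D1:**
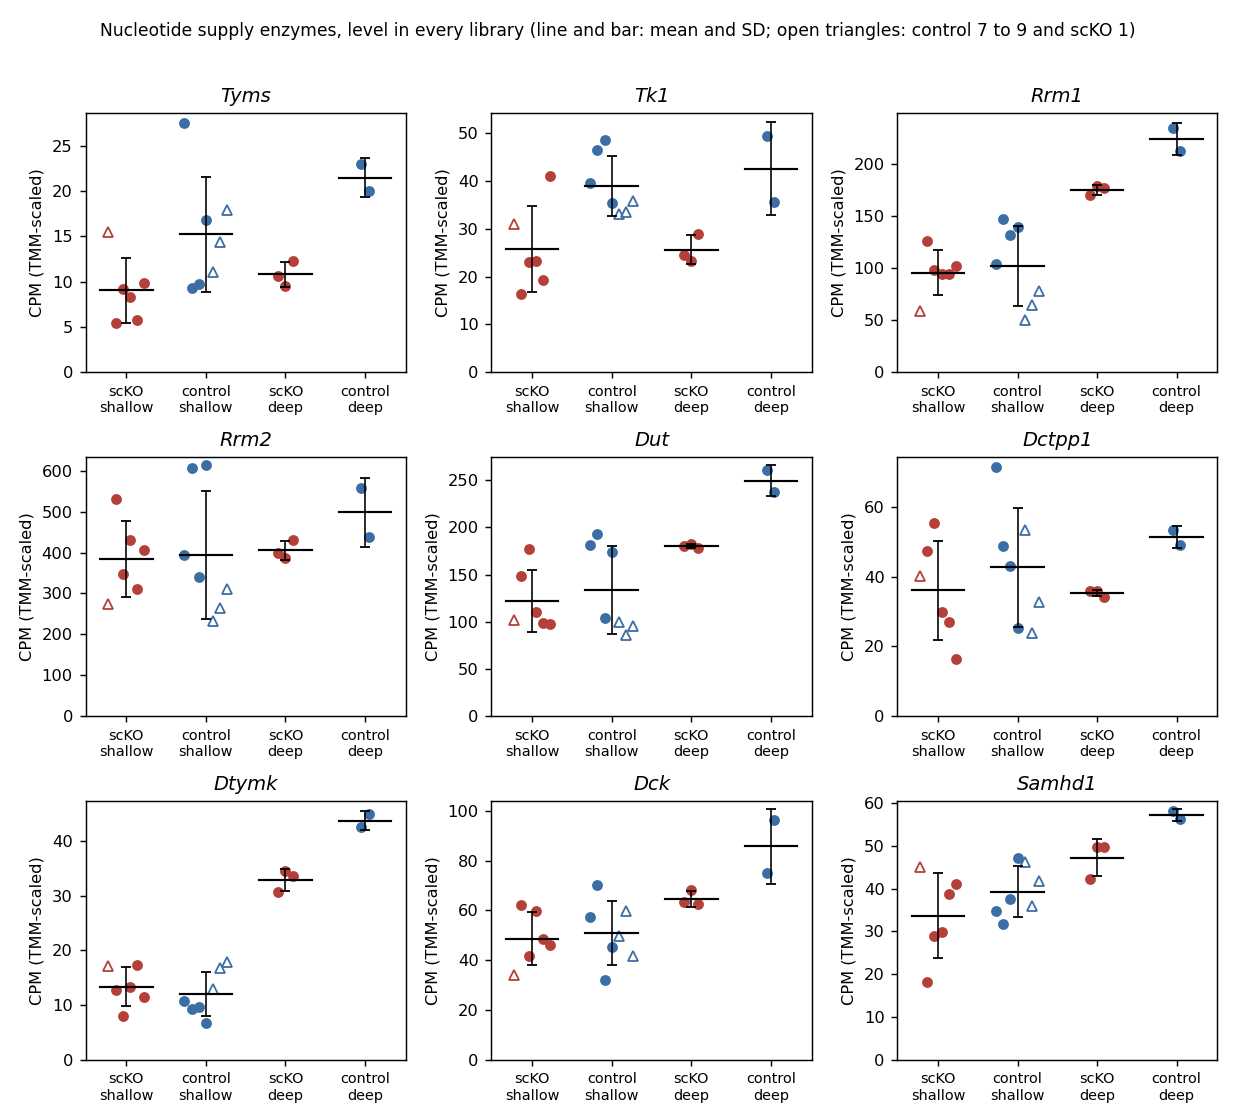
Level of each of the 9 enzymes in every library, in TMM-scaled CPM on axes from 0, with scKO left of control in each depth class; lines and bars are mean and SD, and open triangles are scKO 1 and control 7 to 9. In the deep class every scKO point lies below both control points in all 9 panels, while in the shallow class the groups overlap in all 9.

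Tyms (ENSMUSG00000025747, chr5:30058202-30073617, minus strand, GENCODE M21 on GRCm38), the only enzyme that makes thymidylate de novo, had the largest fall of the 9. In the deep class it was at 10.6, 9.55 and 12.3 CPM in scKO 6, 7 and 9, against 23 and 20 CPM in control 1 and 2. All 3 scKO values lay well under both controls, on counts of 73 to 84 in scKO and 124 and 160 in control libraries. The shallow scKO libraries ran from 5.47 to 15.5 CPM with a median of 8.78, against 9.27 to 27.5 CPM with a median of 14.4 in shallow controls. There the groups overlapped, with 4 of 6 scKO libraries below every control and 3 of 7 controls above every scKO library, on only 3 to 10 counts per scKO library and 6 to 23 per control library. The log2 fold change was -0.89 (± 0.20 SE; adjusted p in edgeR 0.0402) over all libraries and -1.00 (± 0.17 SE; adjusted p in edgeR 0.00193) in the deep class. The shallow fit left Tyms out for low counts, and without that filter it gave -0.70 (± 0.37 SE; adjusted p in edgeR 0.652). The pseudogene Tyms-ps held 11 counts in all libraries together, against 616 for Tyms.

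The call over all libraries sat close to the threshold of 0.05. It was lost without scKO 2, 3, 5, 7 or 8 (adjusted p 0.0528 to 0.145), and Tyms fell under the count filter without scKO 6, scKO 9 or control 1, 2 or 3. In the deep class the fold change stayed between -1.11 and -0.91 whichever library was left out, and the edgeR call held each time.

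Tk1 (ENSMUSG00000025574, chr11:117815526-117826092, minus strand), the cytosolic thymidine kinase, is the salvage route to the same product. Its level was 24.6, 23.2 and 29 CPM in scKO 6, 7 and 9, against 49.5 and 35.7 CPM in control 1 and 2. The deep groups did not overlap, and the controls differed between themselves more than the scKO libraries did. In the shallow class it ran from 16.4 to 41.1 CPM (median 23.2) in scKO libraries, against 33.2 to 48.6 CPM (median 35.9) in controls. Here 5 of 6 scKO libraries lay below every control, and scKO 8, at 41.1 CPM, lay among them. The log2 fold change was -0.67 (± 0.15 SE; adjusted p in edgeR 0.0434) over all libraries, -0.74 (± 0.16 SE; adjusted p in edgeR 0.00759) in the deep class and -0.61 (± 0.22 SE; adjusted p in edgeR 0.729) in the shallow class. Significance over all libraries went without any of control 1 to 5 or scKO 2, 3, 5, 6, 7 or 9 (adjusted p 0.0506 to 0.205), and the deep call without control 1 (-0.51, adjusted p = 0.0671). Afmid and Gm20708 overlap Tk1 on the other strand. Whether counting used strand is not given in the sources used here, and without strand their reads in the overlap cannot be told from those of Tk1.

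**Figure D2:**
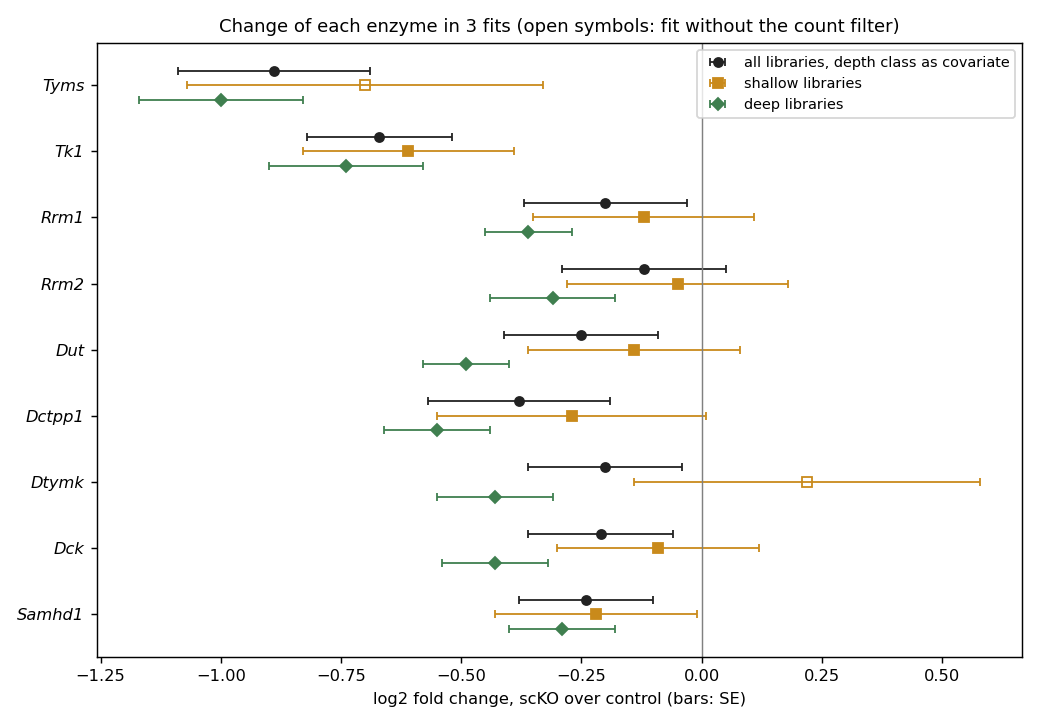
Log2 fold change of each enzyme, scKO over control, with its SE as bars, over all libraries with depth class as covariate (black circles), in shallow libraries (orange squares, open where the count filter was lifted) and in deep libraries (green diamonds). Tyms and Tk1 lie furthest below 0 in each of the 3 fits, and Dtymk in shallow libraries, at 0.22, is the only point above 0.

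Dut, the dUTPase that feeds Tyms and keeps uracil out of DNA, fell in the deep class. It was at 180, 182 and 178 CPM in scKO 6, 7 and 9, against 261 and 238 CPM in control 1 and 2. The 3 scKO values lay close together, and the gap to the controls was many times their spread. The deep log2 fold change was -0.49 (± 0.09 SE; adjusted p in edgeR 0.00358). In the shallow class Dut ran from 97.1 to 177 CPM (median 106) in scKO libraries, against 86.3 to 193 CPM (median 104) in controls, a near-complete overlap. The shallow log2 fold change was -0.14 (± 0.22 SE; adjusted p in edgeR 0.914).

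Dtymk, the kinase downstream of both Tyms and Tk1, had fold changes of opposite sign in the 2 depth classes. The deep libraries gave 30.6, 34.4 and 33.5 CPM in scKO 6, 7 and 9, against 42.5 and 44.9 CPM in control 1 and 2, and a log2 fold change of -0.43 (± 0.12 SE; adjusted p in edgeR 0.0268). The shallow libraries gave 8.08 to 17.4 CPM (median 13) in scKO, against 6.74 to 17.9 CPM (median 10.8) in controls, on 7 to 11 and 4 to 9 counts per library. Without the count filter the shallow log2 fold change was 0.22 (± 0.36 SE; adjusted p in edgeR 0.869). The deep call was lost when any library but control 1 was left out (adjusted p 0.0547 to 0.109) and under DESeq2 (adjusted p = 0.0765). A test of the difference between depth classes gave -0.62 (deep minus shallow, SE 0.33, edgeR adjusted p = 0.848) for Dtymk and called none of the 9 enzymes. That test called 0.00% of 7662 genes in edgeR, with 6.17% at an unadjusted p under 0.05 and none of the 9 enzymes among them, so a fall in the deep class and none called in the shallow class is not shown to be a difference.

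Rrm1 (ENSMUSG00000030978, chr7:102441695-102469771, plus strand), the catalytic subunit of the reductase, fell in the deep class. It was at 170, 179 and 177 CPM in scKO 6, 7 and 9, against 235 and 213 CPM in control 1 and 2. The log2 fold change was -0.36 (± 0.09 SE; adjusted p in edgeR 0.017), and the call was lost without control 1 or without any 1 of the 3 scKO libraries (adjusted p 0.0552 to 0.0693). In the shallow class it ran from 59 to 126 CPM (median 96.6) in scKO libraries, against 49.8 to 147 CPM (median 104) in controls. The lowest shallow values of both groups were those of the 4 libraries that stood apart, at 59 CPM in scKO 1 and 49.8, 64.7 and 77.7 CPM in control 7, 8 and 9. Without these, the other 5 shallow scKO libraries lay at 94.8 to 126 CPM and the other 4 controls at 104 to 147 CPM. Leaving them out takes more low values from the controls than from scKO, which by itself lowers the fold change. The fold change over all libraries was -0.20 (± 0.17 SE, adjusted p in edgeR 0.709), and -0.35 (edgeR adjusted p = 0.0352) without those 4 libraries. That call was lost when the count filter was lifted too (edgeR adjusted p = 0.0557). Over all alternatives to the fit of all libraries, the adjusted p of Rrm1 ran from 0.0352 to 0.977. Gm45399 overlaps Rrm1 on the same strand, so their reads in the overlap cannot be told apart by strand.

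Rrm2 (ENSMUSG00000020649, chr12:24708241-24714146, plus strand), the S-phase subunit, did not pass the test in any class as deposited. It was at 398, 387 and 431 CPM in scKO 6, 7 and 9, against 558 and 439 CPM in control 1 and 2. The scKO values lay below both controls, but scKO 9 and control 2 differed by less than the spread within either group. The deep log2 fold change was -0.31 (± 0.13 SE; adjusted p in edgeR 0.119). Shallow libraries ran from 275 to 532 CPM (median 377) in scKO, against 232 to 615 CPM (median 340) in controls, with a log2 fold change of -0.05 (± 0.23 SE; adjusted p in edgeR 0.971). The 4 libraries that stood apart were again low, at 275 CPM in scKO 1 and 232, 264 and 311 CPM in control 7, 8 and 9. Rrm2b, the paralog of Rrm2 that supplies the reductase outside S phase, was at 27 to 59 counts in deep scKO libraries and 16 to 50 in deep controls, with a log2 fold change of 0.29 (± 0.36 SE; adjusted p in edgeR 0.648).

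Rrm2 counts came close to a limit of the table itself. The highest count of any gene in any library was exactly the number of different sequences that 6 bases allow, and the table's own name says that its counts are of unique molecular identifiers (UMIs), the random tags that mark single molecules. The UMI length is not given in the sources used here. Rrm2 held 2812 to 3515 counts in the deep libraries, 68.7% to 85.8% of that number, Dut 29.7% to 46.6% and Rrm1 29.3% to 41.6%, and each of the other 6 enzymes at most 18.8%. A correction for molecules that share an identifier multiplied deep Rrm2 counts by 1.69 to 2.28, up to 8000. With corrected counts the deep fold change of Rrm2 was -0.53 (edgeR adjusted p = 0.00363), 8 of 9 enzymes were called lower, and the median of the 9 was -0.53 in place of -0.43. With them 2108 genes were called in all, against 1884 with the deposited counts. Rrm2 was also called lower in the deep class without control 2 (-0.48, adjusted p = 0.00328) and, barely, without the count filter (adjusted p = 0.0468). Without control 1 it was at -0.14 (adjusted p = 0.374), and over all alternatives the adjusted p ran from 3.85e-06 to 0.374. In the shallow libraries Rrm2 reached 11.2% of the limit at most.

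**Figure D3:**
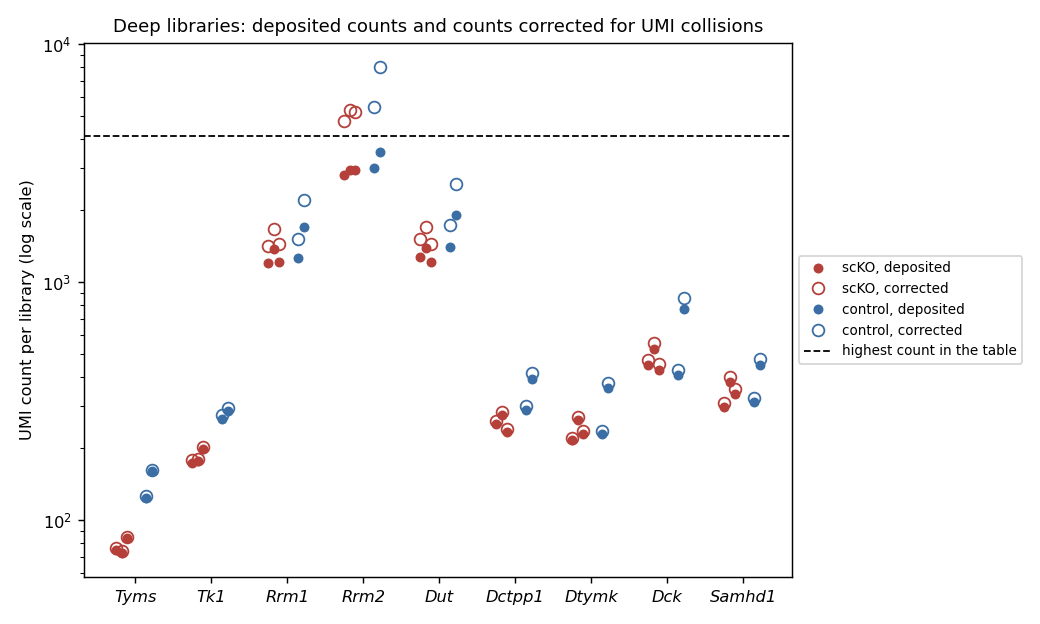
UMI count of each enzyme in the 5 deep libraries on a log axis, as deposited (filled) and corrected for shared identifiers (open), scKO in red left of control in blue; the dashed line is the highest count in the table. Filled and open points part visibly for Rrm2, whose corrected counts lie above the line, and less for Rrm1 and Dut.

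Dck, the salvage kinase for deoxycytidine, fell in the deep class. It was at 63.2, 68.2 and 62.5 CPM in scKO 6, 7 and 9, against 75.2 and 96.3 CPM in control 1 and 2, with a log2 fold change of -0.43 (± 0.11 SE; adjusted p in edgeR 0.0235). The controls spread far wider than the scKO libraries. The call was lost without control 2 (-0.23, adjusted p = 0.248) and without any 1 of the scKO libraries (adjusted p 0.0546 to 0.0649). Shallow libraries ran from 34.1 to 62 CPM (median 47.3) in scKO, against 31.9 to 70.2 CPM (median 49.8) in controls, and the shallow log2 fold change was -0.09 (SE 0.21).

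Dctpp1, the dCTP pyrophosphatase, fell in the deep class, and that call held whichever library was left out. It was at 35.8, 36 and 34.3 CPM in scKO 6, 7 and 9, against 53.6 and 49.1 CPM in control 1 and 2. The scKO values again lay close together, and the log2 fold change was -0.55 (± 0.11 SE; adjusted p in edgeR 0.00523; -0.62 to -0.50 with each library left out). Among shallow libraries it varied widely within scKO cells, from 16.5 to 55.4 CPM (median 35.1), against 24 to 71.7 CPM (median 43) in controls, with a log2 fold change of -0.27 (± 0.28 SE; adjusted p in edgeR 0.878).

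Samhd1, which degrades deoxynucleoside triphosphates, did not pass the test in any class. It was at 42.2, 49.7 and 49.6 CPM in scKO 6, 7 and 9, against 58.1 and 56.2 CPM in control 1 and 2. All 3 scKO libraries lay below both controls, and the deep log2 fold change was -0.29 (± 0.11 SE; adjusted p in edgeR 0.101). Shallow libraries ran from 18.2 to 45 CPM (median 34.3) in scKO, against 31.8 to 47.2 CPM (median 37.5) in controls, with a log2 fold change of -0.22 (± 0.21 SE; adjusted p in edgeR 0.859).

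How the enzymes moved together was described over the 18 libraries as log2 CPM minus the mean of the depth class. Over the 36 pairs Pearson's r ran from -0.58 to 0.87 with a median of 0.11, and 22 pairs were above 0. The reductase subunits Rrm1 and Rrm2 went together (r = 0.87), and Dut with both (0.73 with Rrm2, 0.67 with Rrm1). Tyms and Tk1 formed another pair (r = 0.66), with Samhd1 near them (0.59 with Tk1, 0.56 with Tyms), while Tyms and Rrm2 had r = -0.03. Dtymk ran against Dut (r = -0.58), Rrm1 (-0.55) and Rrm2 (-0.53). These are descriptions over libraries that include both groups and share their scaling, and low counts add noise to Tyms and Dtymk.

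**Figure D4:**
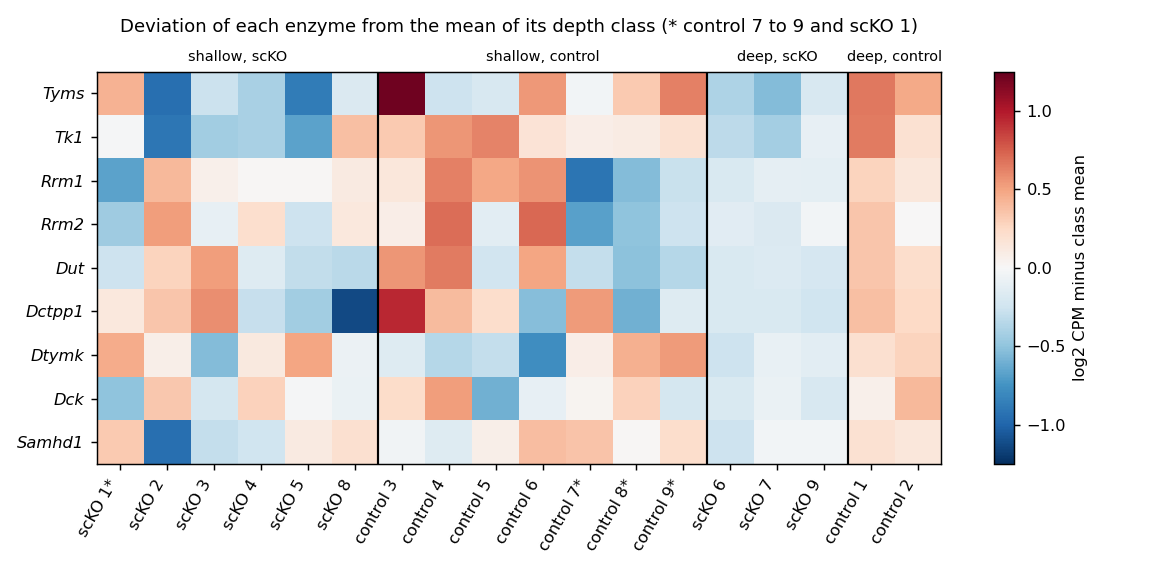
Log2 CPM of each enzyme (rows) in each library (columns) minus the mean of its depth class, red above and blue below, with scKO columns left of control columns in each class. In the 3 deep scKO libraries every enzyme lies below the class mean, and scKO 1 and control 7 to 9 (asterisks) are low in Rrm1, Rrm2 and Dut.

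The 4 libraries that stood apart were low in Rrm1, Rrm2 and Dut, while genes of cycling cells were not low as a set. Summed over 12 such genes, the level was 1972 CPM in scKO 1 and 1845 to 2360 CPM in control 7 to 9. The other shallow libraries had 1141 to 1666 CPM in scKO and 1687 to 2062 CPM in control. Among single genes, Mcm7 was above and Cdk1 below every other shallow library in all 4. Dut was at 102 CPM in scKO 1 and 86.3 to 99.6 CPM in control 7 to 9, against 97.1 to 177 CPM in the other shallow scKO libraries and 104 to 193 CPM in the other shallow controls. Mcm7, a subunit of the replicative helicase, was high in the same libraries, at 545 CPM in scKO 1 and 489 to 636 CPM in control 7 to 9, against 263 to 299 CPM in the other shallow scKO libraries and 342 to 418 CPM in the other shallow controls. The mitotic kinase Cdk1 was low there, at 140 CPM in scKO 1 and 108 to 153 CPM in control 7 to 9, against 182 to 266 CPM in the other shallow scKO libraries and 218 to 317 CPM in the other shallow controls. Dtymk was at 17.1 CPM in scKO 1 and 12.9 to 17.9 CPM in control 7 to 9, above the 6.74 to 10.8 CPM of the other shallow controls. Without them 3 enzymes were called lower over all libraries, Tyms (-0.99, edgeR adjusted p = 0.0024), Tk1 (-0.75, edgeR adjusted p = 0.0033) and Rrm1, with a median of -0.35. Then 617 genes were called in all, against 52 with every library. Dut was at -0.41 over all libraries without the 4, in place of -0.25, and at -0.36 in the shallow class. Rrm2 was at -0.28 over all libraries without them, in place of -0.12, and at -0.27 in the shallow class. Neither enzyme was called. Leaving out the 4, mostly controls and low in Rrm1, Rrm2 and Dut, by itself lowers the fold changes of these enzymes. The shallow median was then -0.34, still with 0 enzymes called.

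The genes whose pattern was most like the mean of the members, over the same 18 libraries and among 6711 genes averaging at least 20 CPM, were Aurka (r = 0.921), Kif4 (0.902), Pclaf (0.869), Ssrp1 (0.861) and Lig1 (0.850). These r values include the difference between scKO and control, and the members did not all vary alike (median r of 0.11 between pairs). Aurka is a mitotic kinase, Kif4 a chromosome-bound kinesin, Pclaf a PCNA-binding protein, Ssrp1 a histone chaperone subunit and Lig1 the ligase that joins Okazaki fragments. Of 12 genes of cycling cells, 1, Mcm5 of the replicative helicase (-0.63 ± 0.15 SE; adjusted p in edgeR 0.0434), fell over all libraries, all 12 were below 0, and their median was -0.48. In the shallow class 0 of 10 tested were called, with all 10 below 0, a median of -0.37 and Cdk1 at -0.01. Of all genes tested, 0.352% were called lower over all libraries and 7.03% in the deep class. In the deep class 11 of the 12 fell, with the smallest p in Mcm5 (-0.93), Ccna2 (-0.77), Ccnb1 (-0.72) and Mcm2 (-0.73). Their summed level was 1027 to 1103 CPM in deep scKO libraries against 1483 to 1645 CPM in deep controls, and 1141 to 1972 CPM in shallow scKO libraries against 1687 to 2360 CPM in shallow controls. Both these genes and the nucleotide enzymes had lower group means in scKO libraries of each class, but they did not go together in every library. Control 7, 8 and 9 had 589, 599 and 672 CPM summed over the 9 enzymes, with 1980, 1845 and 2360 CPM for the cycling genes. Control 4 had 1163 and 2062 CPM. The part of the cycling genes in the result was not tested.

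The rest of nucleotide metabolism showed 0 called genes in edgeR over all libraries in each of 5 lists. Of 19 tested among other enzymes and transporters of deoxynucleotides, 4 had an unadjusted p under 0.05, with a median of -0.05. Among them the adenylate kinase Ak6 was at -0.69 (edgeR adjusted p = 0.15). Of 11 tested folate and one-carbon genes 3 had an unadjusted p under 0.05 (median -0.11), of 16 purine genes 2 (median -0.13), of 6 pyrimidine genes 1 (median -0.21), and of 6 thioredoxin and glutaredoxin genes that reduce the reductase 0 (median -0.00).

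In the deep class genes of all 5 lists fell, and 1 purine gene rose. Of all 13136 genes tested there, 7.03% were called lower and 14.3% in either direction. Among 31 other deoxynucleotide genes 5 fell, including Ak6 (-0.67, edgeR adjusted p = 0.00333), the nucleoside transporter Slc29a2 (-0.51) and the dCMP deaminase Dctd (-0.90, edgeR adjusted p = 0.0059), which supplies dUMP to Tyms. Among 16 folate and one-carbon genes 5 fell, including Shmt1 (-0.70), the hydroxymethyltransferase that charges folate with one-carbon units, Mthfd1l (-0.62), the folate carrier Slc19a1 (-0.88) and Mthfd1 (-0.58). Of 9 pyrimidine genes 4 fell, among them Cad (-0.60), whose protein carries the first steps of pyrimidine synthesis, and Umps (-0.61), which completes UMP. Of 16 purine genes 5 fell, including Pfas (-0.90, edgeR adjusted p = 0.000932), and Adssl1, the muscle form of adenylosuccinate synthase, rose (0.85, edgeR adjusted p = 0.000913) while its paralog Adss fell (-0.53). Txnrd1, a thioredoxin reductase, fell (-0.42, edgeR adjusted p = 0.0183), as 1 of the 7 electron donor genes. Median log2 fold changes in the deep class were -0.11 for the other deoxynucleotide genes, -0.18 for folate and one-carbon genes, -0.21 for pyrimidine, -0.30 for purine and -0.14 for electron donor genes, against -0.43 for the 9 enzymes.

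**Figure D5:**
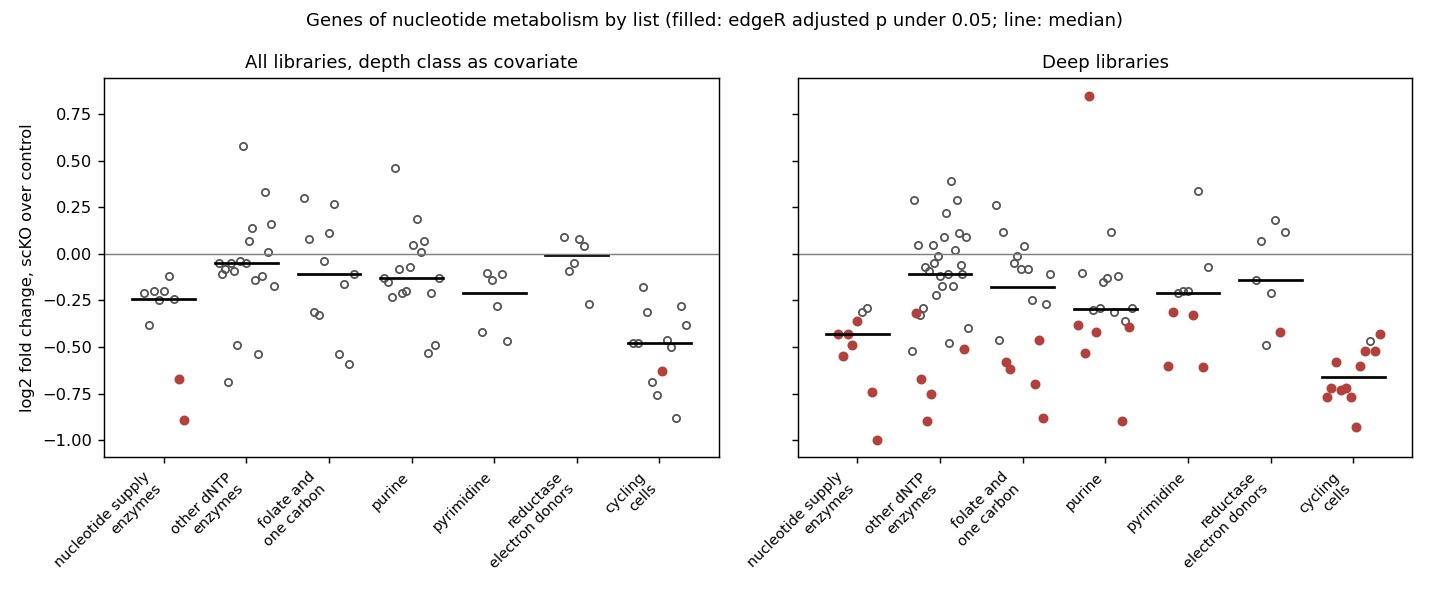
Log2 fold change, scKO over control, of each tested gene in 7 lists, over all libraries with depth class as covariate (left) and in deep libraries (right); filled points had an edgeR adjusted p under 0.05 and lines are medians. The nucleotide supply enzymes (median -0.43 in deep libraries) and genes of cycling cells (median -0.66) lie lower than the other 5 lists, and Adssl1 is the filled point above 0.

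Markers of the labelled cell type were present: none of 8 satellite cell and myoblast markers was at 0 in all libraries of any group, and 1 of the 8, Myf5, fell in the deep class (-0.33, edgeR adjusted p = 0.035). Differentiated muscle markers were also at high levels. They summed to 3733 to 4021 CPM in deep scKO libraries and 3091 to 4050 CPM in deep controls. In shallow libraries they summed to 13724 to 18246 CPM in scKO and 12216 to 20402 CPM in controls. Whether the limit on counts described for Rrm2 held down the deep sums was not tested. These deep sums are therefore not compared between groups or depth classes. Of the 10 markers, 4 rose in the deep class (Myh8, Ckm, Mymx and Actn2, by 0.60 to 0.89), and 4 others were below 0 there without a call. In the shallow class 0 of the 10 were called and 6 were below 0. There Actn2 was at -0.36, Mymx at -0.26, Myh8 at -0.02 and Ckm at 0.29. Of markers of other cells, leukocyte sums reached at most 13.2 CPM in scKO and 11.1 CPM in control libraries, and fat markers at most 4.45 CPM in scKO and 1.84 CPM in control libraries, with Adgre1 and Cd3e, Plin1 and Cidec at 0 in most groups. Fabp4, 1 of 4 fat markers, rose in the deep class (1.33, edgeR adjusted p = 0.0325). Endothelial sums reached 46.5 CPM in scKO and 55.6 CPM in control libraries, and fibroblast sums 89.3 CPM in scKO and 132 CPM in controls, with 0 called by edgeR in the deep class in either list and Clec3b at 0 throughout. Tendon markers summed to 303 to 334 CPM in deep scKO libraries and 257 to 308 CPM in deep controls, and Scx, the 1 of 4 tested, was at 0.15 on the log2 scale (edgeR adjusted p = 0.405). Smooth muscle and pericyte markers summed to 308 to 328 CPM in deep scKO libraries and 267 to 310 CPM in deep controls, and Abcc9 (1.19) and Myh11 (1.61) of 6 rose. Schwann cell markers summed to 55.8 to 93.3 CPM in deep scKO libraries and 47.3 to 66.2 CPM in deep controls, and Sox10 and Foxd3 of 6 rose there (1.96 each), while in shallow libraries the sums were 60.1 to 179 CPM in scKO and 136 to 300 CPM in control. The part of these markers in the results was not tested.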

How the data were processed

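RNA of 18 libraries was measured as counts per gene. The deposited table holds raw UMI counts per mouse Ensembl gene, by its own name and whole-number values. HISAT2, HTSeq and the build Rnor_6.0 stand in the submitters' processing notes without roles. That rat build does not match the mouse gene IDs, so no coordinate comes from the table. Kit, strand and UMI length are not given in the sources used here. Of 50689 IDs, 50376 matched a symbol (the other 313 held 0.041% of counts). Coordinates came from GENCODE M21 on GRCm38.

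The members and gene lists were chosen with earlier results of these data known. Named genes are all 9 members, up to 4 called genes of each list by p (or up to 2 of smallest p), and the 5 genes most like the members. Mcm7, Cdk1 and Itga7 were also named after their values were seen. The values of 1 listed gene are not reported here.

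edgeR 4.0.16 (R 4.3.3) fitted quasi-likelihood models with TMM scaling and filterByExpr by group over whole tables, p-values were adjusted by Benjamini and Hochberg, and 0.05 was the threshold. The fits used all libraries with depth class, each class alone, and the interaction. Alternatives were median-of-ratios scaling, other filters, DESeq2 1.42.0, limma-voom (limma 3.58.1), counts n corrected as -M ln(1 - n/M) with M the highest count of the table, each library left out, the replicate block, group alone, and 4 libraries left out. Scripts were tested on simulated counts.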

Additional observations from a re-analysis of the deposited data

How the results depend on the processing

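Over all libraries, 2 enzymes were also called lower with median-of-ratios scaling, no count filter, DESeq2 or limma-voom. The count was 0 under a stricter filter (at least 10 counts in enough libraries, 7 enzymes tested), 1 with counts corrected for UMI collisions (8 tested, Tyms not among them) and 0 with group alone, and it ran from 0 to 2 with each library left out. It was 3 without scKO 1 and control 7, 8 and 9, and 4 when the filter was lifted as well (median -0.36), an alternative chosen after seeing the data; those 4 were Tyms, Tk1, Dut (edgeR adjusted p = 0.0125) and Dctpp1 (0.0139), while Rrm1 (0.0557) was not called. The shallow median was -0.34 without those 4, with or without the filter. The deep median was -0.53 with corrected counts and -0.54 with the filter lifted too, also chosen after seeing the data. With each deep library left out, 4 to 6 enzymes were called, 4 without any 1 of the scKO libraries; without a control the lone control is assumed to vary like the scKO libraries. Genes called over all libraries numbered 52, against 22 under the stricter filter, 1037 without the 4 libraries and the filter, and 1 with group alone; the causes were not tested. Fold changes near 0 turned sign: Dtymk with group alone (0.00), shallow Rrm2 without control 4 (0.09), control 6 (0.09), scKO 1 (0.03) or scKO 5 (0.01), with each library left out in a range of -0.16 to 0.09, and shallow Dck without control 4 (0.02) or scKO 1 (0.00), likewise in a range of -0.18 to 0.02.

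Deviations of same-numbered scKO and control libraries correlated between -0.0658 and 0.249, not over 0.1 in every pair. The labels name no shared source for same-numbered libraries, and these correlations cannot decide whether there was one. With the replicate block and depth class, 0 enzymes and 14 genes were called, with Tyms at -0.81 (edgeR adjusted p = 0.153), Tk1 at -0.67 (0.108) and Dtymk at 0.02; in shallow libraries the block left 0 called and a median of -0.17. No paired analysis was possible for the deep libraries because they share no replicate number. Depth limits the shallow class most, where Tyms held 3 to 23 and Dtymk 4 to 11 counts per library.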

Other observations

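Among 18 regulators of entry into S phase, 13 passed the count filter over all libraries and 0 were called by edgeR, with 2 at an unadjusted p under 0.05 (median log2 fold change -0.13). The nearest were the phosphatase Cdc25a (-0.39, SE 0.15, edgeR adjusted p = 0.255) and the pocket protein Rbl1 (-0.48, SE 0.20, edgeR adjusted p = 0.29). In the deep libraries 6 of 18 fell and 1 rose. Rb1, the retinoblastoma protein that holds E2F factors back, rose (0.67, SE 0.09, edgeR adjusted p = 0.000726). The cyclin genes Ccne1 (-0.67, SE 0.10) and Ccne2 (-0.85, SE 0.19), which drive cells into S phase, fell, as did Cdc25a (-0.71, SE 0.11), with edgeR adjusted p of 0.00122, 0.00992 and 0.00134 in that order. Over 13136 genes tested there, 14.3% were called in either direction. In the shallow libraries 0 of 13 tested regulators were called, with Rb1 at 0.02, Ccne1 at 0.01 and Cdc25a at -0.18.

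Dtymk was at 32.8 ± 2 CPM in deep scKO libraries (SD, n = 3) and 13.4 ± 3.52 CPM in shallow scKO libraries (n = 6). In controls it was at 43.7 ± 1.73 CPM in deep (n = 2) and 12 ± 4.1 CPM in shallow libraries (n = 7). Tk1 was close between the classes, at 25.6 ± 3.03 CPM in deep and 25.7 ± 9.01 CPM in shallow scKO libraries, and 42.6 ± 9.79 and 38.9 ± 6.22 CPM in controls. Depth and anything else that differs between the classes cannot be told apart.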
